A study of Mus musculus with 36 samples.

Results

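The genes described here are 41 mouse genes of mitosis and the G2/M transition, the step at which a cell with replicated DNA commits to dividing. They were chosen by name, and all 41 were found by NCBI gene number among the 19001 genes of a paired-end table and the 17697 genes of a single-end table (17488 genes were in both). By role they fall into 8 groups: the entry engine (6 genes), mitotic kinases and their partners (6), checkpoint and exit (7), centromere and kinetochore (4), motors and spindle (8), cytokinesis (3), chromosome compaction (5), and a regulator and a marker (2).

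Total RNA of mouse liver, spleen and thymus was sequenced as 36 libraries in 12 groups of 3. The series title names the role of the C-terminus of the tumour suppressor p53 in liver gene regulation and radiation resistance. The paired-end groups were liver, spleen and thymus with wild-type p53 (wt), either without treatment or 3 h after 2 Gy of X-rays. The single-end groups were the same tissues of wt mice and of mice whose p53 lacks its C-terminus (d24), and every one was titled xray. For 9 of these 18 libraries (d24 liver, d24 thymus and wt spleen) the treatment field reads control, and the 9 libraries titled d24 carry WT in another field, so groups follow the titles. In the single-end table genotype and irradiation therefore cannot be told apart from the labels alone. The labels name no animals, so each p-value measures only the spread between these samples. Xist, high in some libraries and near 0 in others within each group except d24 spleen and d24 thymus, shows that the 3 libraries of those groups did not all come from 1 animal. In d24 spleen and d24 thymus, where it was high in all 3, the spread may be technical. Both tables were normalised separately and every test stayed within 1 table.

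Cyclin B with its kinase Cdk1 drives entry into mitosis, the kinases Plk1 and Aurora A and B build and correct the spindle, and the anaphase-promoting complex with Cdc20 and Ube2c ends it by degrading cyclin B and securin. Many of these genes share a promoter element, the cell cycle homology region (CHR), through which MuvB complexes hold them off in resting cells and switch them on late in the cycle, often beside CCAAT boxes bound by NF-Y. After DNA damage p53 induces the inhibitor p21 (gene Cdkn1a), which blocks cyclin-dependent kinases and favours the repressive MuvB complex named DREAM. In tissues the abundance of these transcripts follows the number of dividing cells, and in bulk samples fewer cells of a type and less RNA per cell cannot be told apart.

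RefSeq promoter windows on GRCm38, from 250 bases before to 50 bases after the annotated start, were matched for 34 of the 41 genes (38 windows, as Ect2, Prc1, Gtse1 and Cep55 have a pair each). The CHR core TTTGAA, searched on both strands, was in 22 of the 34 genes (64.7%), against 15.6% of the 13841 genes of the paired-end table that have such a window. Within 60 bases of the start it was in 20 (58.8%) against 4.5%. Examples from genes described below follow, 5′ to 3′ on the gene's strand with the core nearest the start (or its reverse, TTCAAA) in capitals, to show the element in genes of different roles.
Cdk1: ccgcggcgagTTTGAAactgctggca
Plk1: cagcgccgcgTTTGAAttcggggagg
Aurka: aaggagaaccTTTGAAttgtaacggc
Cdc20: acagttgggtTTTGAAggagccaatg
Cenpf: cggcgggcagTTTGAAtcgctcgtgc
Kif11: gtctccatttTTCAAAattgaggcgc
Ncapg: gcgatagttgTTTGAAaactctggcg
Anln: ggcgctgaaaTTCAAAttttgaacgg
The stretches lie at chr10:69352912-69352937 (minus strand) for Cdk1, chr7:122159455-122159480 (plus) for Plk1, chr2:172370523-172370548 (minus) for Aurka and chr4:118437346-118437371 (minus) for Cdc20. Those of the other genes shown lie at chr1:189688069-189688094 (minus) for Cenpf, chr19:37376353-37376378 (plus) for Kif11, chr5:45669885-45669910 (plus) for Ncapg and chr9:22389170-22389195 (minus) for Anln. The Anln stretch holds 1 more TTTGAA after the marked one, in lower case. A match is a description of the letters and not evidence of binding.

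CCAAT, on either strand, was in 25 of the 34 genes (73.5%) against 42.3% of all genes with a window, and at least 2 matches were in 16 (47.1%) against 15.2%. The CHR variant TTTAAA was in 9 (26.5%) against 11.8%. A pair of promoters is shown in longer stretches because Ube2c rose in irradiated spleen and Ccnb1 was among the members that fell most in irradiated thymus: Ube2c from 160 bases before the start to the base before it (chr2:164769769-164769928, plus strand), and Ccnb1 from 120 bases before (chr13:100786487-100786606, minus strand). Capitals mark CCAAT or its reverse ATTGG, and TTCAAA or TTTAAA.
Ube2c: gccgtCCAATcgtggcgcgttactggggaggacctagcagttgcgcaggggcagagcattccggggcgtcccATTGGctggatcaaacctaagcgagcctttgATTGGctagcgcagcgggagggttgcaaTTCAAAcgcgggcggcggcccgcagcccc
Ccnb1: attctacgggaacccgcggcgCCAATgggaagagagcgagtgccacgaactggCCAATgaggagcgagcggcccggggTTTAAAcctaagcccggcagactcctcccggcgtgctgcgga
Both stretches hold CCAAT matches in the capitals marked, upstream of a CHR core in Ube2c and of its variant in Ccnb1.

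The window at the second annotated start of Gtse1 held the closest match among the members to the p53 consensus (the name of a pair of decamers, searched on both strands with up to 13 bases between them). It had 1 mismatch and no bases between the decamers, and Gtse1 was 1 of 34 members (2.9%) with at most 1 mismatch, against 145 genes (1.05%) of all with a window. The match is shown because Gtse1 went against the other members below. It lies at chr15:85859945-85859964 (plus strand), and capitals are bases that meet the consensus.
Gtse1: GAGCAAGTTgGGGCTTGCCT
Gtse1 windows held CCAAT and TTTAAA but no TTTGAA, and those of Pttg1, Birc5, Mad2l1, Knstrn, Nusap1 and Ncaph held neither TTTGAA nor CCAAT.

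**Figure D1:**
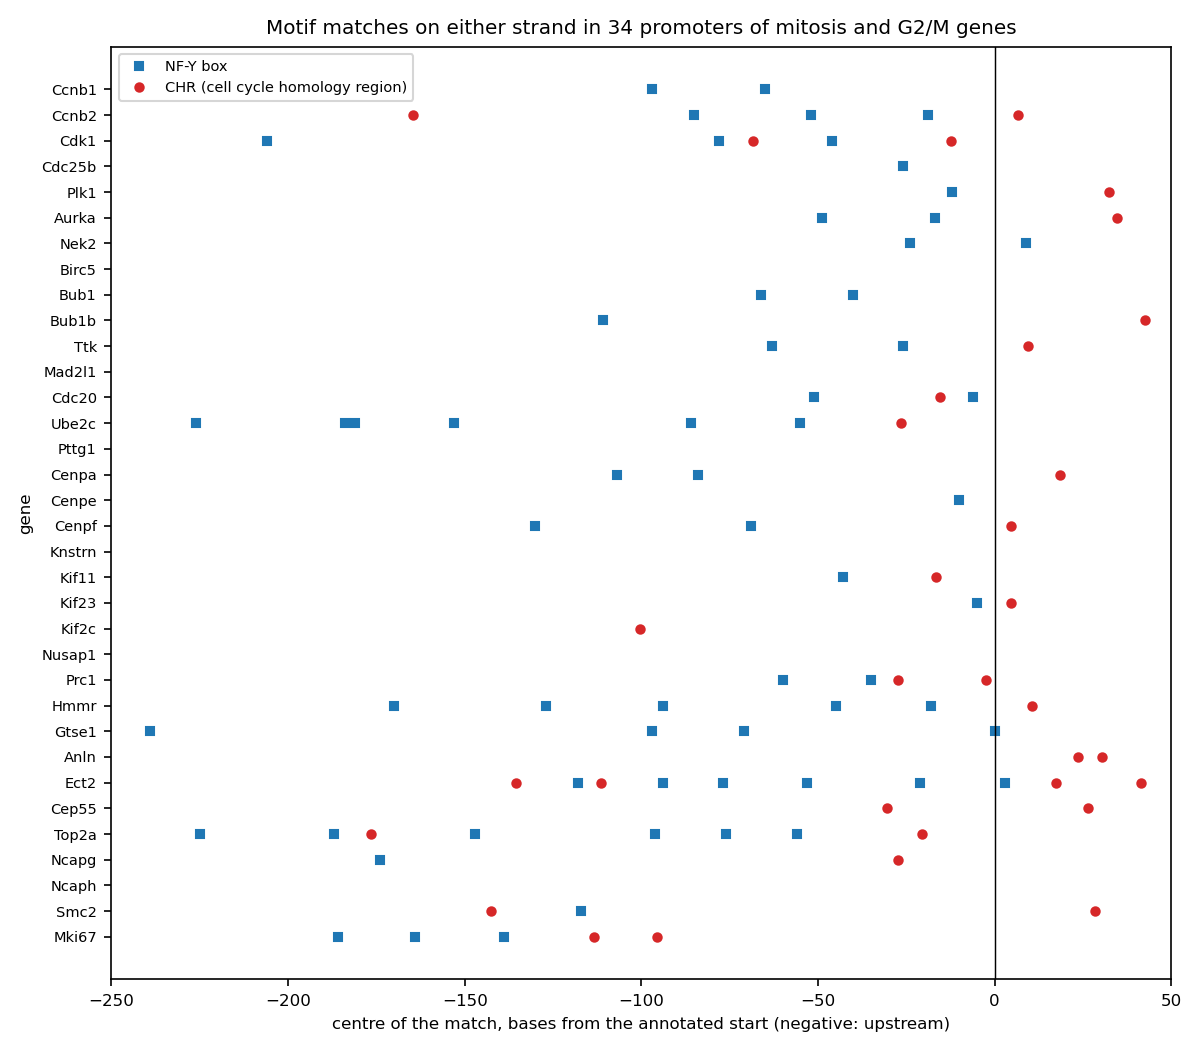
Positions of CCAAT (NF-Y box) and TTTGAA (CHR) matches on either strand in the promoters of 34 mitosis and G2/M genes. The x axis is the distance of the match centre from the annotated start in bases (negative is upstream), each row is a gene, and most CHR matches sit close to the start, with 20 of 34 genes having one within 60 bases.

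The libraries held 44348579 to 81322683 reads in paired-end and 20481048 to 38042710 in single-end groups, and replicate correlations over genes ran from 0.985 to 0.996 and from 0.915 to 0.987. Signal is reads per 1000000 of an effective library size, and 1 read was worth 0.00991 to 0.0828 units. Tissue markers fitted the labels: summed hepatocyte markers reached 278652 to 418298 in liver and at most 1549 elsewhere, summed thymocyte markers 4434 to 8305 in thymus and at most 208 elsewhere. Irradiated paired-end liver replicate 1 stood apart from its group in the members, and d24 thymus replicate 3 in members and in erythroid markers, and results that rest on them are given with and without them. Xist, expressed from the inactive X chromosome of females, was high in 1 of 3 untreated and 2 of 3 irradiated libraries of each paired-end tissue. Cdkn1a, which p53 induces, was 3.74 to 16.05 in untreated and 97.7 to 162 in irradiated paired-end libraries. In the single-end table it was 108 to 364 in d24 liver, 319 to 416 in d24 spleen and 20.4 to 67.8 in d24 thymus, and 17.7 to 147, 5.46 to 9.37 and 11.3 to 16.5 in wt liver, spleen and thymus.

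Without treatment the members were far more abundant in the lymphoid organs than in liver. They took 0.0449% to 0.0568% of reads in liver, 1.10% to 1.19% in spleen and 0.680% to 0.817% in thymus. Between thymus and spleen all 41 passed, with adjusted p between 2.61e-09 and 0.0367 (limma, Benjamini-Hochberg), as did 76% of all genes tested. Of the members 40 were lower and 1 higher in thymus, against 39.3% and 36.7% of all genes. Their median log2 difference (thymus minus spleen) was -1.08, against -0.03 over all genes.

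The member furthest below was Cdc25b, a phosphatase that activates Cdk1, at a signal of 72.0 ± 6.39 in thymus and 492 ± 51.0 in spleen (SD, n = 3), a log2 difference of -2.76 ± 0.10 (SE). Mki67, the source of the proliferation marker Ki-67, was 509 ± 43.9 against 2472 ± 54.7 (-2.28 ± 0.09). Anln (anillin, a scaffold of the contractile ring), Ube2c and Ccna2 (cyclin A2) followed at -1.81 ± 0.10, -1.68 ± 0.11 and -1.67 ± 0.09. The smallest differences were those of Bub1b (a checkpoint protein that restrains Cdc20, -0.25 ± 0.10), Smc4 (a condensin subunit, -0.35 ± 0.07), Top2a (topoisomerase IIα, which untangles DNA, -0.38 ± 0.10) and Kif2c (a kinesin that shortens microtubules, -0.46 ± 0.10). Bub1b was also the 1 member whose groups overlapped.

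Cep55, which recruits the machinery that severs the last bridge between daughter cells, was the 1 member higher in thymus. Its signal was 32.1 ± 3.25 there and 5.52 ± 0.84 in spleen (2.44 ± 0.12, limma, Benjamini-Hochberg adjusted p = 3.94e-08). All 3 thymus libraries, at 29.3 or more, lay above all 3 spleen libraries, at 6.41 or less.

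**Figure D2:**
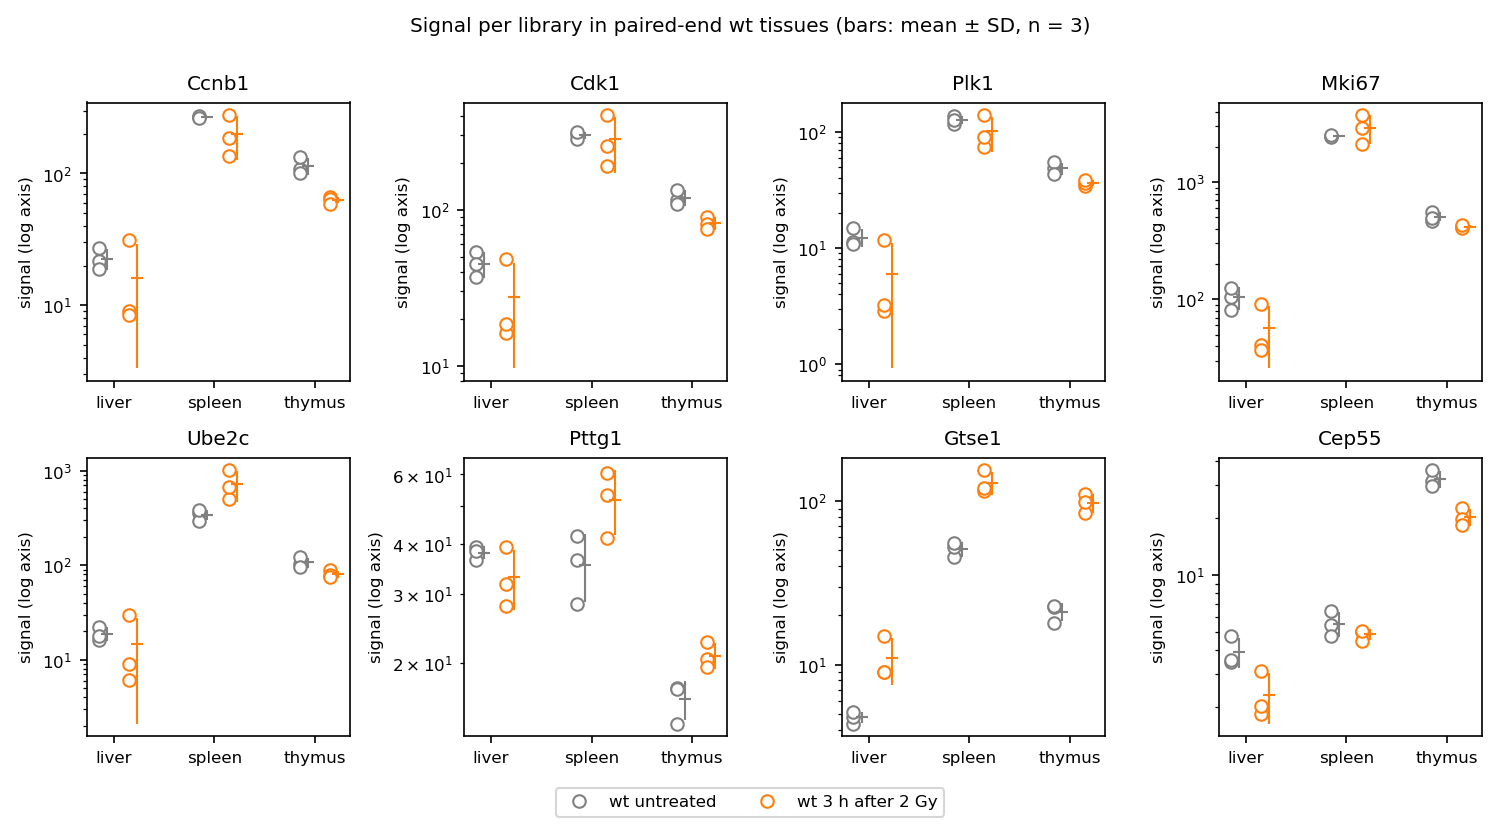
Signal per library (log axis) of 8 members in untreated wt tissues and 3 h after 2 Gy, with mean ± SD of 3 libraries beside the points. In untreated tissues the mean is lowest in liver for all 8 except Pttg1, and Gtse1 is higher after X-rays in each tissue.

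In irradiated wt thymus most members fell, in every role except the regulator and the marker. Of 41 members, 27 were lower and 2 higher (limma, Benjamini-Hochberg over 13810 genes), where 11.6% of all genes were lower and 9.77% higher (21.3% in either direction). The median log2 difference (X-ray minus untreated) was -0.41, against 0.01 over all genes tested. The groups did not overlap for 31 members that were lower and 2 that were higher, against 22% and 18.6% of all genes. Below 0 lay 39 members and above it 2, against 48.7% and 51.3% of all genes, and 36 members had an unadjusted p under 0.05, against 36.4%. In 1 fit over all 18 paired-end libraries, which share 1 estimate of the spread, only Gtse1 (higher), Ncapg and Cep55 (lower) passed (limma, Benjamini-Hochberg adjusted p = 2.21e-07, 0.0352 and 0.0175), with 11.8% of all genes.

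In the entry engine 5 of 6 fell. Ccnb1 (cyclin B1, the activating partner of Cdk1) had signals of 109, 133 and 100.3 in untreated thymus and 65.8, 64.4 and 58.8 after X-rays. All irradiated libraries lay well below all untreated ones, a log2 difference of -0.84 ± 0.11 (limma, Benjamini-Hochberg adjusted p = 0.000981). Cdk1 went from 116, 134 and 108 to 89.95, 81.4 and 75.0 (-0.54 ± 0.10). Ccnb2, Ccna2 and Cdc25b fell as well, by 0.59, 0.45 and 0.36 on the log2 scale, and Cdc25c (-0.38 ± 0.16) did not pass.

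Of the mitotic kinases and partners 4 of 6 fell. Aurka, the Aurora A kinase of the spindle poles, was 52.96, 54.9 and 46.9 without treatment and 39.1, 38.2 and 35.0 after X-rays (-0.46 ± 0.09). Plk1 was 48.4, 54.5 and 43.0 against 34.2, 36.6 and 38.2 (-0.41 ± 0.10). In neither gene did the groups overlap. Nek2, a centrosome kinase, and Tpx2, which activates Aurora A, fell by 0.57 and 0.47 on the log2 scale, while Aurkb (-0.18 ± 0.11) and its partner survivin, Birc5 (-0.24 ± 0.10), did not pass.

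Checkpoint and exit genes split. Bub1 (-0.48 ± 0.10), Bub1b (-0.40 ± 0.11), Cdc20 (-0.44 ± 0.10) and Ube2c (-0.40 ± 0.10) fell. Ube2c, the ubiquitin-conjugating enzyme of the anaphase-promoting complex, was 104, 122 and 95.9 without treatment and 88.9, 78.1 and 75.7 after X-rays, with no overlap. Pttg1 (securin, which holds the chromatid-cutting enzyme separase in check) was higher, at 22.6, 20.5 and 19.6 against 17.4, 17.2 and 14.1. Its difference of 0.36 ± 0.11 (limma, Benjamini-Hochberg adjusted p = 0.0428) did not pass in any of the 6 fits with 1 library left out (adjusted p from 0.0597 to 0.128). The checkpoint genes Ttk and Mad2l1 did not pass (-0.21 ± 0.13 and -0.25 ± 0.10).

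At the centromere Cenpf, a kinetochore protein made late in the cycle, was 78.3, 95.2 and 80.8 without treatment and 56.7, 51.9 and 55.8 after X-rays. The groups lay clear of each other (-0.62 ± 0.09, limma, Benjamini-Hochberg adjusted p = 0.00197). Cenpe, a kinetochore motor, fell too (-0.44 ± 0.10), as did the centromeric histone Cenpa (-0.40 ± 0.13), whose groups overlapped. Knstrn did not pass (-0.41 ± 0.14).

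Among motors and spindle proteins 6 of 8 fell, with Kif23 (-0.50 ± 0.09), Prc1 (-0.46 ± 0.09) and Kif11 (-0.44 ± 0.09), the motor that pushes the spindle poles apart, among them. Kif11 was 183, 220 and 193 without treatment and 152, 147 and 140 after X-rays. Kif20a, Kif2c and Hmmr fell by 0.41, 0.41 and 0.36 on the log2 scale, and Nusap1 did not pass (-0.18 ± 0.09).

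Gtse1, a microtubule-binding protein of G2 and S phase known to restrain p53, rose in the same libraries. Its signal was 22.5, 22.8 and 18.1 without treatment and 84.1, 109.9 and 98.4 after X-rays. All irradiated libraries lay far above all untreated ones (2.18 ± 0.12, limma, Benjamini-Hochberg adjusted p = 3.68e-06).

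In cytokinesis, Cep55 fell from 31.3, 35.7 and 29.3 to 22.4, 19.6 and 18.3 (-0.66 ± 0.11). Anln fell from 32.3, 42.0 and 38.4 to 25.9, 23.4 and 23.8 (-0.60 ± 0.11). Neither gene's groups overlapped. Ect2, the activator of the contractile ring's GTPase, did not pass (-0.30 ± 0.10).

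The compaction gene Ncapg, a condensin subunit, was 57.7, 66.2 and 56.6 without treatment and 36.5, 32.8 and 30.8 after X-rays (-0.84 ± 0.09, limma, Benjamini-Hochberg adjusted p = 0.000445), with no overlap. Its condensin partners Smc2 (-0.56 ± 0.09) and Smc4 (-0.31 ± 0.09) fell, but Ncaph, another condensin subunit, did not pass (0.00 ± 0.11). Top2a (-0.27 ± 0.11, adjusted p = 0.0971 by limma), the transcription factor Foxm1 that drives many of these genes (-0.19 ± 0.10) and Mki67 (-0.28 ± 0.09, adjusted p = 0.058 by limma) did not pass.

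Of the 22 genes with TTTGAA in the window 18 fell and 0 rose in irradiated thymus, and of the 12 without it 5 fell and 2 rose, with median differences of -0.44 and -0.31. Of the 25 genes with CCAAT 20 fell and 1 rose, and of the 9 without it 3 fell and 1 rose (medians -0.44 and -0.25). With the CHR variant TTTAAA 7 of 9 fell and 1 rose, and without it 16 of 25 fell and 1 rose (medians -0.41 and -0.41). These counts describe the members only, with no share of all genes with a match beside them. A link between a motif and the fall was not tested. Leaving out a library moved the number of members called in thymus between 19 and 29, with 19 both without X-ray replicate 3 and without untreated replicate 2. Bub1b lost its call without X-ray replicate 1 or 3 or untreated replicate 2, Cdc20 without X-ray replicate 3 and Plk1 without untreated replicate 2. Neutrophil markers were higher in 5 of 5 and thymic epithelium markers in 3 of 5 in irradiated thymus, while thymocyte markers were lower in 1 of 10 tested. Of 11 erythroid markers tested 1 was lower and all lay below 0 (median -0.27), with sums of 101 to 155 without treatment and 60.3 to 110.5 after X-rays. The part of these cell types in the result was not tested.

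**Figure D3:**
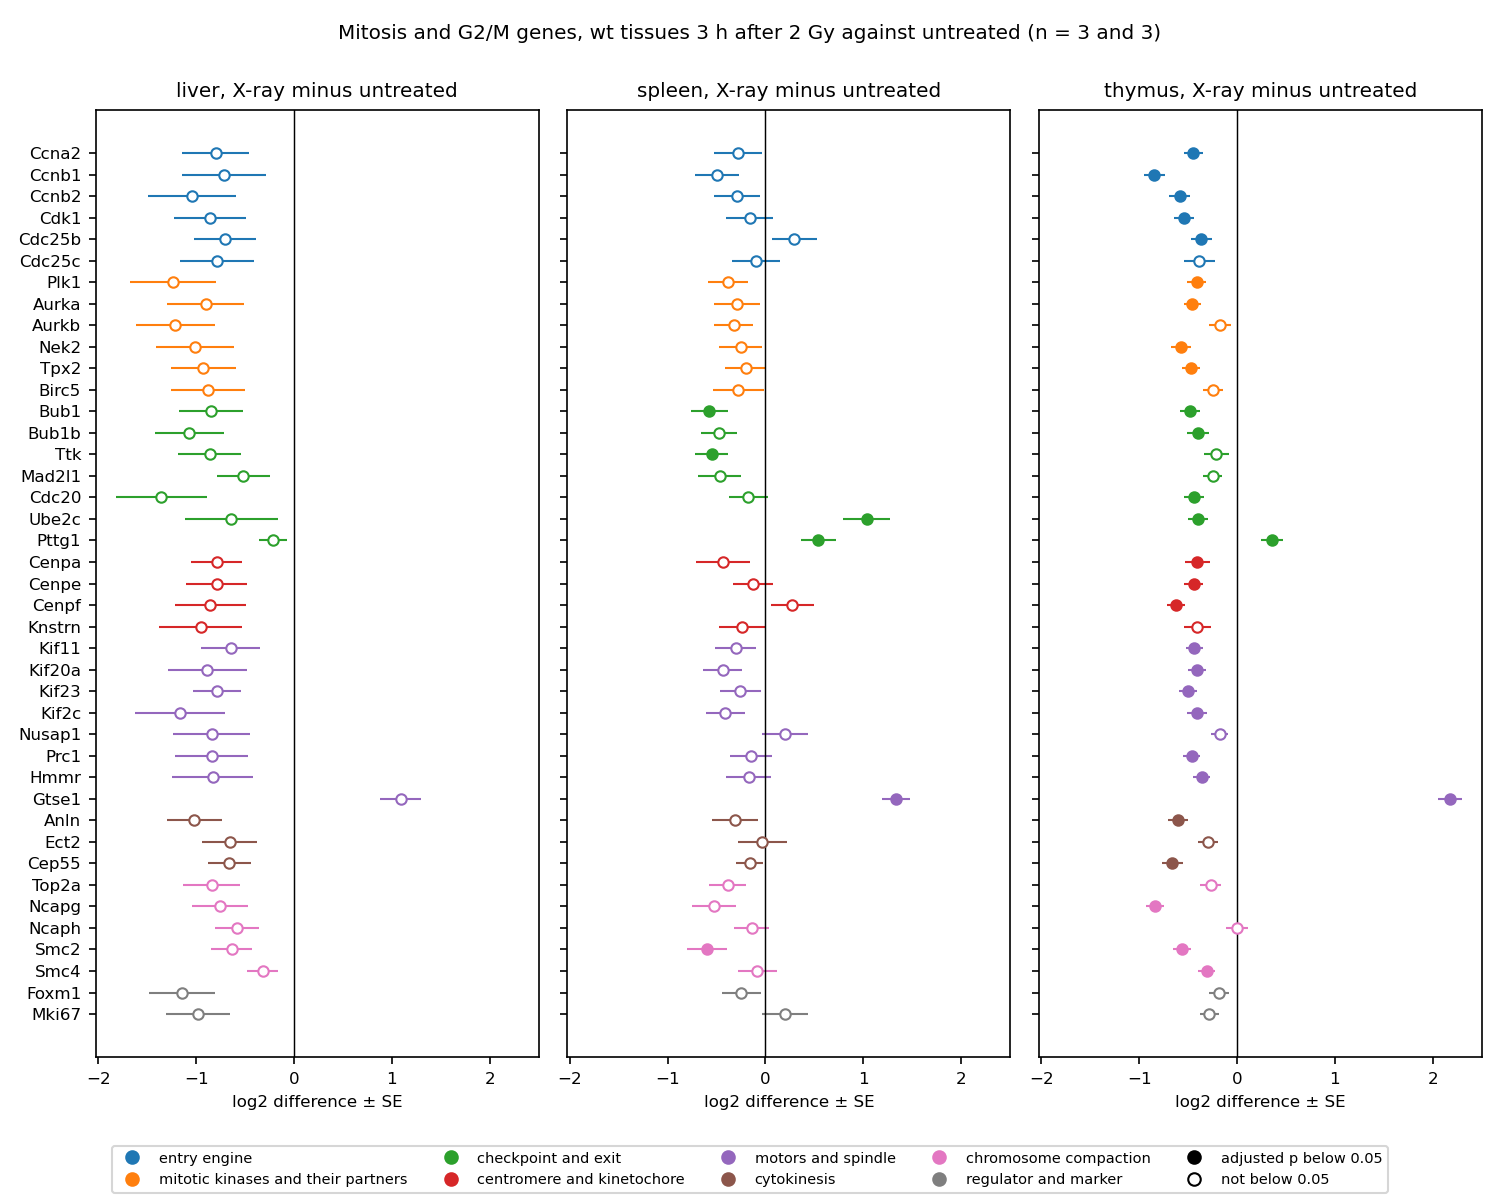
Log2 difference (X-ray minus untreated, ± SE, n = 3 and 3) of 41 members in liver, spleen and thymus of wt mice, coloured by role, with filled points for adjusted p below 0.05. Points lie mostly left of 0 in liver, spleen and thymus, and Gtse1 lies to the right in each. Of the points 29 are filled in thymus, 6 in spleen and 0 in liver.

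In irradiated wt spleen 6 of 41 members passed, 3 higher and 3 lower, where 40% of all genes passed (19.5% higher, 20.4% lower), so the members' share of 14.6% was below that of all genes. Their median log2 difference was -0.25, against -0.03 for all. Below 0 lay 34 members and above it 7, against 52.5% and 47.5% of all genes, and 8 members had an unadjusted p under 0.05, against 49.7%. The groups did not overlap for 2 members that were higher and 4 that were lower, against 24.5% and 28.8%. On plain CPM without the authors' composition factor 17 members passed, 2 higher and 15 lower, with 35.1% of all genes. The erythroid marker sum, the summed signal of 12 red-cell genes, was 16052, 12444 and 15559 in the untreated libraries and 22293, 12495 and 17454 in the irradiated ones, and the members summed to 10566, 10182 and 10708 against 14182, 7445 and 10290. Members and markers were both highest in irradiated replicate 1 and lowest of the irradiated libraries in replicate 2. With the erythroid markers as a covariate (chosen after seeing the data), 33 members passed, 3 higher and 30 lower, with 54.2% of all genes. In the main comparison 1 of 12 erythroid markers was lower, while hepatocyte markers were higher in 7 of 7 tested, neutrophil markers in 5 of 5, macrophage markers in 4 of 4 and B cell markers in 4 of 7. Summed hepatocyte markers were 45.5 to 65.3 without treatment and 97.7 to 555 after X-rays, neutrophil markers 326 to 431 and 424 to 964, macrophage markers 266 to 344 and 401 to 595, and B cell markers 1046 to 1251 and 1392 to 2092. Their part in the result was not tested.

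Ube2c had signals of 357, 295 and 381 in untreated spleen and 1014, 501 and 678 after X-rays. The lowest irradiated library exceeded the highest untreated one, a log2 difference of 1.03 ± 0.24 (limma, Benjamini-Hochberg adjusted p = 0.00968). Gtse1 rose from 45.3, 52.1 and 55.5 to 154, 115 and 120 (1.33 ± 0.14, adjusted p = 0.000299 by limma). Both passed in all 6 fits with 1 library left out, with adjusted p up to 0.0463 for Ube2c and 0.00274 for Gtse1. Pttg1 was 41.9, 28.2 and 36.5 against 60.6, 41.4 and 53.3 (0.54 ± 0.18, adjusted p = 0.0392 by limma), with overlap, and lost its call in 4 of 6 such fits.

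The 3 members that fell were Smc2 (condensin), Bub1 and Ttk (checkpoint kinases). Smc2 was 324, 334 and 297 against 286, 156 and 207 (-0.60 ± 0.20). Bub1 was 78.0, 80.8 and 77.3 against 73.3, 40.4 and 49.6 (-0.57 ± 0.19). Ttk was 37.8, 39.9 and 34.8 against 33.5, 20.5 and 23.9 (-0.55 ± 0.17). Their groups did not overlap, yet each was no longer called in 5 of the 6 fits with 1 library left out (highest adjusted p 0.122, 0.131 and 0.107 by limma).

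The other panel genes did not pass in spleen. Ccnb1 was 269.9, 273.0 and 263.9 against 277, 135 and 185 (-0.50 ± 0.23), and Mki67 was 2465, 2422 and 2530 against 3726, 2103 and 2908 (0.20 ± 0.23). In both, irradiated replicate 1 exceeded every untreated library while replicate 2 was below them. Cdk1 (-0.16 ± 0.24), Plk1 (-0.38 ± 0.21), Aurka (-0.29 ± 0.24), Bub1b (-0.48 ± 0.18), Cdc20 (-0.18 ± 0.20) and Cenpf (0.28 ± 0.22) did not pass, nor did Kif11 (-0.31 ± 0.21), Anln (-0.31 ± 0.23), Top2a (-0.39 ± 0.19) and Foxm1 (-0.25 ± 0.20). Without irradiated replicate 1, 32 members passed (2 higher, 30 lower, with 53.3% of all genes), without irradiated replicate 2, 6 (6 higher, with 34.6% of all genes), and without any 1 of the other 4 libraries, 2 or 3.

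In wt liver after X-rays no member passed (limma; 0.242% of all genes passed, 0.204% higher and 0.0377% lower), although 28 of 41 had an unadjusted p under 0.05, where 21.9% of all genes had one. By edgeR's quasi-likelihood test 0 passed and by DESeq2 3 (1 higher, 2 lower, with 4.76% of all genes). In 1 fit over all 18 paired-end libraries 15 passed (1 higher, 14 lower, with 10.1% of all genes). The median log2 difference was -0.84, against -0.05 over all genes, and 40 of 41 lay below 0 and 1 above, against 56.9% and 43.1% of all. The members' summed signal was 851, 1121 and 902 in the untreated libraries and 977, 396 and 429.8 in the irradiated ones. Irradiated replicate 1 lay within the untreated range and the other two below it.

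Single genes showed the same layout. Cdc20 was 25.5, 34.6 and 28.4 without treatment and 27.8, 6.29 and 7.70 after X-rays (-1.35 ± 0.47). Plk1 was 11.4, 14.8 and 10.7 against 11.8, 2.86 and 3.26 (-1.24 ± 0.44). In both the first irradiated library lay inside the untreated range and the others lay far below it.

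Foxm1 was 12.5, 18.9 and 14.4 against 11.9, 4.26 and 5.38 (-1.14 ± 0.33), with no overlap. Cdk1 (-0.86 ± 0.37), Ccnb1 (-0.72 ± 0.43), Aurka (-0.90 ± 0.39), Bub1b (-1.07 ± 0.35), Cenpf (-0.85 ± 0.36), Kif11 (-0.65 ± 0.30), Top2a (-0.84 ± 0.29) and Mki67 (-0.98 ± 0.32) had overlapping groups. Apart from Foxm1, the members with irradiated libraries below all untreated ones were Anln (-1.02 ± 0.28), Cenpa (-0.79 ± 0.26), Kif23 (-0.79 ± 0.24), Cep55 (-0.66 ± 0.22) and Smc2 (-0.64 ± 0.21), making 6, where 13.9% of all genes were so placed.

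Gtse1 was the 1 member above 0, at 4.36, 4.81 and 5.15 without treatment and 15.05, 9.01 and 9.01 after X-rays (1.09 ± 0.21, limma, Benjamini-Hochberg adjusted p = 0.11). All its irradiated libraries lay above all untreated ones, as for 13.5% of all genes. Without irradiated replicate 1, 39 members were lower and Gtse1 higher (0.85 ± 0.15), while 21.6% of all genes passed, and the median difference was -1.29. Pttg1 (-0.35 ± 0.12) was the 1 member not called then. That count rests on 2 irradiated livers. Of the erythroid markers 10 of 11 tested lay below 0 (median -0.63) and 1, Tfrc, above (1.10 ± 0.54), with 0 passing by limma and 1 at an unadjusted p under 0.05. Their median log2 signal was 2.79, 2.99 and 1.70 in the untreated livers and 2.60, 1.19 and 1.42 in the irradiated ones, so irradiated replicate 1 again lay within the untreated range and the other two below it. Their sums, 389 to 613 and 435 to 524, overlapped, and Tfrc and Alas2 made up most of them. The part of erythroid cells in the result was not tested.

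**Figure D4:**
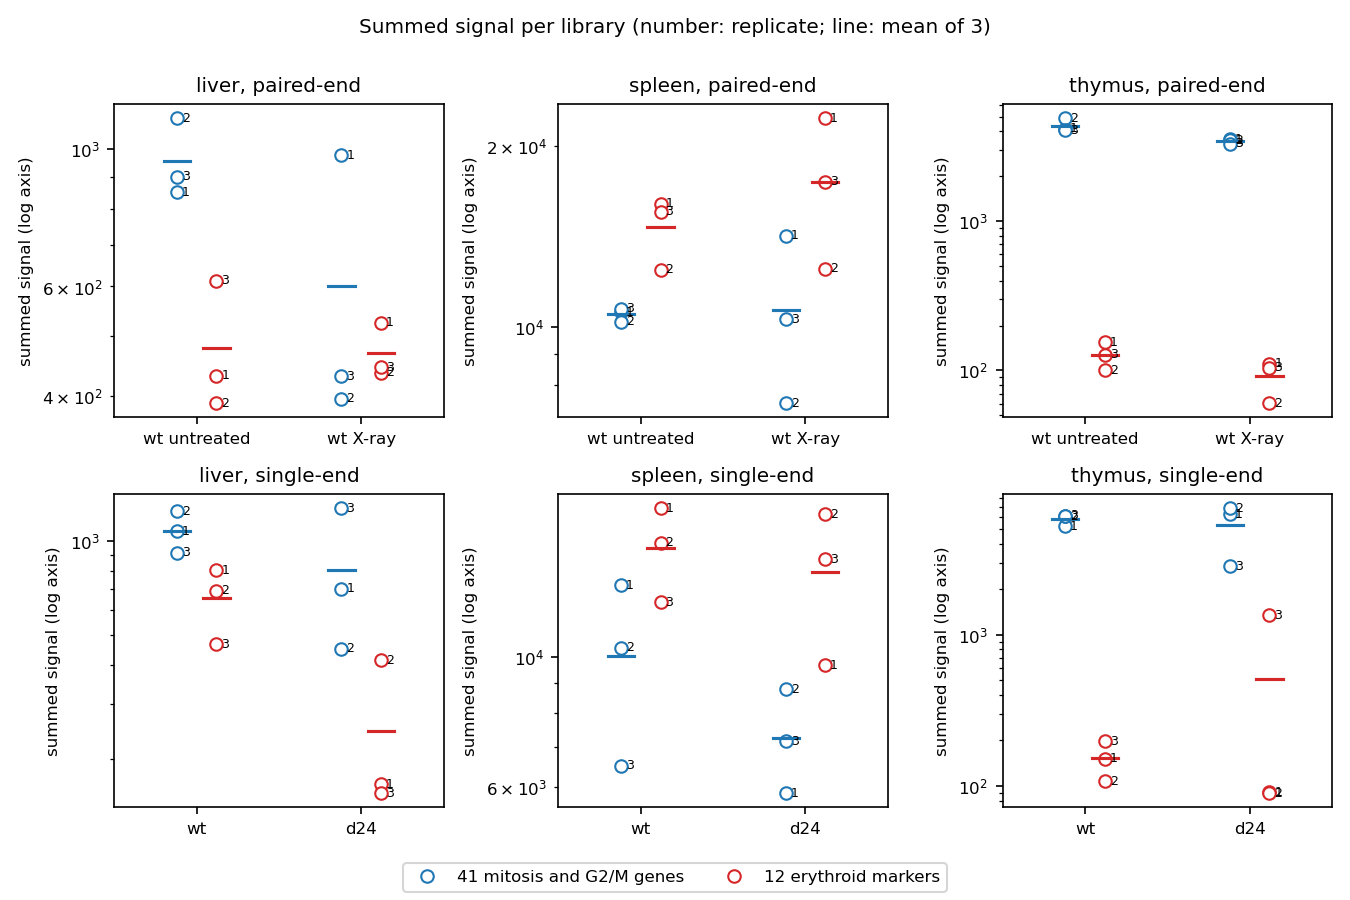
Summed signal per library (log axis) of the 41 members and of 12 erythroid markers in each tissue of both tables, with the replicate number beside each point and a line at the mean of 3. Irradiated liver replicate 1 lies near the untreated livers at 977, and d24 thymus replicate 3 is low in members and high in erythroid markers.

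Differences between tissues in the X-ray effect were tested over the 18 paired-end libraries, taken as independent. Within each treatment Xist was high in the same replicate numbers in every tissue, so tissues of a number may share an animal. Of 41 members, 3 passed the F test (30.5% of all genes passed): Gtse1 (F = 10.8, limma, Benjamini-Hochberg adjusted p = 0.0083), Pttg1 (F = 6.23, 0.0364) and Ube2c (F = 5.97, 0.0403). The Gtse1 effect was larger in thymus than in spleen by 0.84 ± 0.25 (adjusted p = 0.039, 9.54% of all genes passed) and than in liver by 1.09 ± 0.25 (adjusted p = 0.00957, 15.5% passed). Against liver the spleen effect was larger for Ube2c (1.67 ± 0.52), Mki67 (1.18 ± 0.37) and Pttg1 (0.76 ± 0.22), with 26.4% of all genes passing. No other member's difference between tissues passed, and counts with 1 library left out ran from 1 to 33 for the F test.

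The distance of Gtse1 from the median member in its own library, in log2 signal, showed the shift in each library. It was -2.24 to -1.45 in the 9 untreated libraries and -0.60 to 0.88 in the 9 irradiated ones, with no overlap in any tissue. For Ube2c the same distance in spleen was 1.04 to 1.30 without treatment and 2.52 to 2.68 after X-rays, while in thymus it was 0.51 to 0.61 and 0.39 to 0.58. These distances hold each gene's length and so compare libraries, not genes.

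In the single-end table no member passed the test between d24 and wt in any tissue, which is not evidence of no difference. In simulated data the limma test recovered 10%, 3% and 24% of log2 differences of 1 in d24 liver, spleen and thymus. For the X-ray comparisons of liver, spleen and thymus it recovered 90%, 97% and 92%. The changed genes were drawn at random and the reads of each gene independently. Members that shift together in 1 library, as in irradiated liver replicate 1, were therefore not modelled. These shares do not give the chance of calling a member. In liver 0 of 41 passed (limma, 0.526% of all genes passed), with 3 at an unadjusted p under 0.05 and 0 by edgeR or DESeq2. The median log2 difference (d24 minus wt) was -0.60 against -0.08 over all genes, with 38 members below 0 and 3 above (56.4% and 43.6% of all genes). The groups did not overlap for 2 members that were lower and 0 that were higher (11.5% and 7.56%), and 13.4% of all genes had an unadjusted p under 0.05. The smallest p was that of Kif23, a motor of the central spindle, at 3.93, 6.33 and 10.5 in d24 and 20.6, 17.8 and 14.5 in wt (-1.38 ± 0.41, adjusted p = 0.191 by limma), with no overlap. Bub1b (-1.21 ± 0.48) and Ube2c (-0.86 ± 0.35) followed. The other panel genes were Ccnb1 (0.12 ± 0.49), Cdk1 (-0.55 ± 0.42), Plk1 (-0.85 ± 0.58), Aurka (-0.76 ± 0.48), Cdc20 (-0.73 ± 0.45), Cenpf (-0.60 ± 0.60), Kif11 (-0.71 ± 0.49), Anln (-0.33 ± 0.43), Top2a (-0.94 ± 0.43), Foxm1 (-0.69 ± 0.49) and Mki67 (-0.44 ± 0.54), and none of them passed. The members' sums were 704, 452 and 1274 in d24 and 1075, 1248 and 918 in wt, an overlap. Neutrophil markers were lower in d24 liver in 5 of 5 and myeloid precursor markers in 1 of 3 tested, where 0.248% of all genes were lower. B cell markers were lower in 1 of 4 tested and thymocyte markers in 2 of 8. Of 11 erythroid markers tested 1 was lower, with 9 below 0 and 2 above (median -1.30). Erythroid sums were 156 to 415 in d24 and 467 to 806 in wt. The part of these cell types was not tested.

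In spleen 0 of 41 passed (limma; 2.28% of all genes passed, 1.04% higher and 1.24% lower), with 8 at an unadjusted p under 0.05, 0 by edgeR and 3 (lower) by DESeq2. The median was -0.43 against -0.05, with 34 members below 0 and 7 above (54% and 46% of all genes). The groups did not overlap for 1 member that was higher and 9 that were lower (8.74% and 10.6%), and 13.3% of all genes had an unadjusted p under 0.05. Anln was 49.2, 52.5 and 41.5 in d24 and 164, 131 and 69.1 in wt (-1.26 ± 0.33, adjusted p = 0.0738 by limma). Cenpa was 69.6, 96.6 and 65.6 against 141, 129 and 251 (-1.12 ± 0.31), and Cdk1 was 120.4, 147 and 117 against 247, 191 and 217 (-0.77 ± 0.25). In these 3 genes the groups did not overlap, but wt replicate 3 lay apart from the other wt spleens, low for Anln and high for Cenpa. It was low for Mki67 (633 against 3426 and 2586), Top2a (290 against 909 and 708) and Cenpf (87.9 against 328 and 262), and its neutrophil markers summed to 7796 against 2487 and 3075. Without it Anln (-1.62, limma, Benjamini-Hochberg adjusted p = 0.00472) and Cenpf (-1.52, adjusted p = 0.0146) were lower in d24, with 1.82% of all genes called, and Cenpa was at -0.82 (adjusted p = 0.125). The other panel genes were Ccnb1 (-0.29 ± 0.28), Plk1 (0.05 ± 0.29), Aurka (-0.26 ± 0.26), Bub1b (-0.52 ± 0.29), Cdc20 (-0.07 ± 0.27), Cenpf (-0.94 ± 0.43), Kif11 (-0.66 ± 0.34), Top2a (-0.44 ± 0.38), Foxm1 (-0.43 ± 0.29) and Mki67 (-0.41 ± 0.53), and none of them passed.

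Gtse1 had the highest difference of the 7 members above 0 in spleen (0.65 ± 0.31, not passing). Its signal was 58.2, 107 and 58.8 in d24 spleen and 56.7, 46.0 and 36.4 in wt. Its distance from the median member was -0.75 to -0.08 in d24 spleen and -1.53 to -1.34 in wt spleen. Myeloid precursor and neutrophil markers were lower in d24 spleen in 5 of 5 each. Of 7 B cell markers 1 was lower and all lay below 0 (median -1.60), and thymocyte markers were lower in 2 of 9 tested. B cell sums were 57.3 to 314 in d24 and 459 to 607 in wt. The part of these cell types in the result was not tested.

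In thymus 0 of 41 passed (limma, 0.00724% of all genes passed), with 0 at an unadjusted p under 0.05 and 0 by edgeR or DESeq2. The median was -0.23 against -0.02, with 37 members below 0 and 4 above (51.5% and 48.5% of all genes). The groups did not overlap for 1 member that was higher, Cdc25b, and 0 that were lower (9.02% and 7.55%), and 9.83% of all genes had an unadjusted p under 0.05. The smallest p values belonged to Cdc25b (0.39 ± 0.18), Ccnb2 (-0.36 ± 0.23) and Pttg1 (0.60 ± 0.41). The panel genes lay between -0.42 ± 0.34 (Plk1) and 0.08 ± 0.28 (Ccnb1). In d24 thymus replicate 3 the members summed to 2842, against 6270 and 6867 in the other d24 libraries and 5225.5 to 6146 in wt. Its erythroid markers summed to 1349 against 90.5 and 89.5, and its hepatocyte markers to 1284 against 38.9 and 101. Without it the median difference was 0.18, and 34 of 41 members lay above 0.

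**Figure D5:**
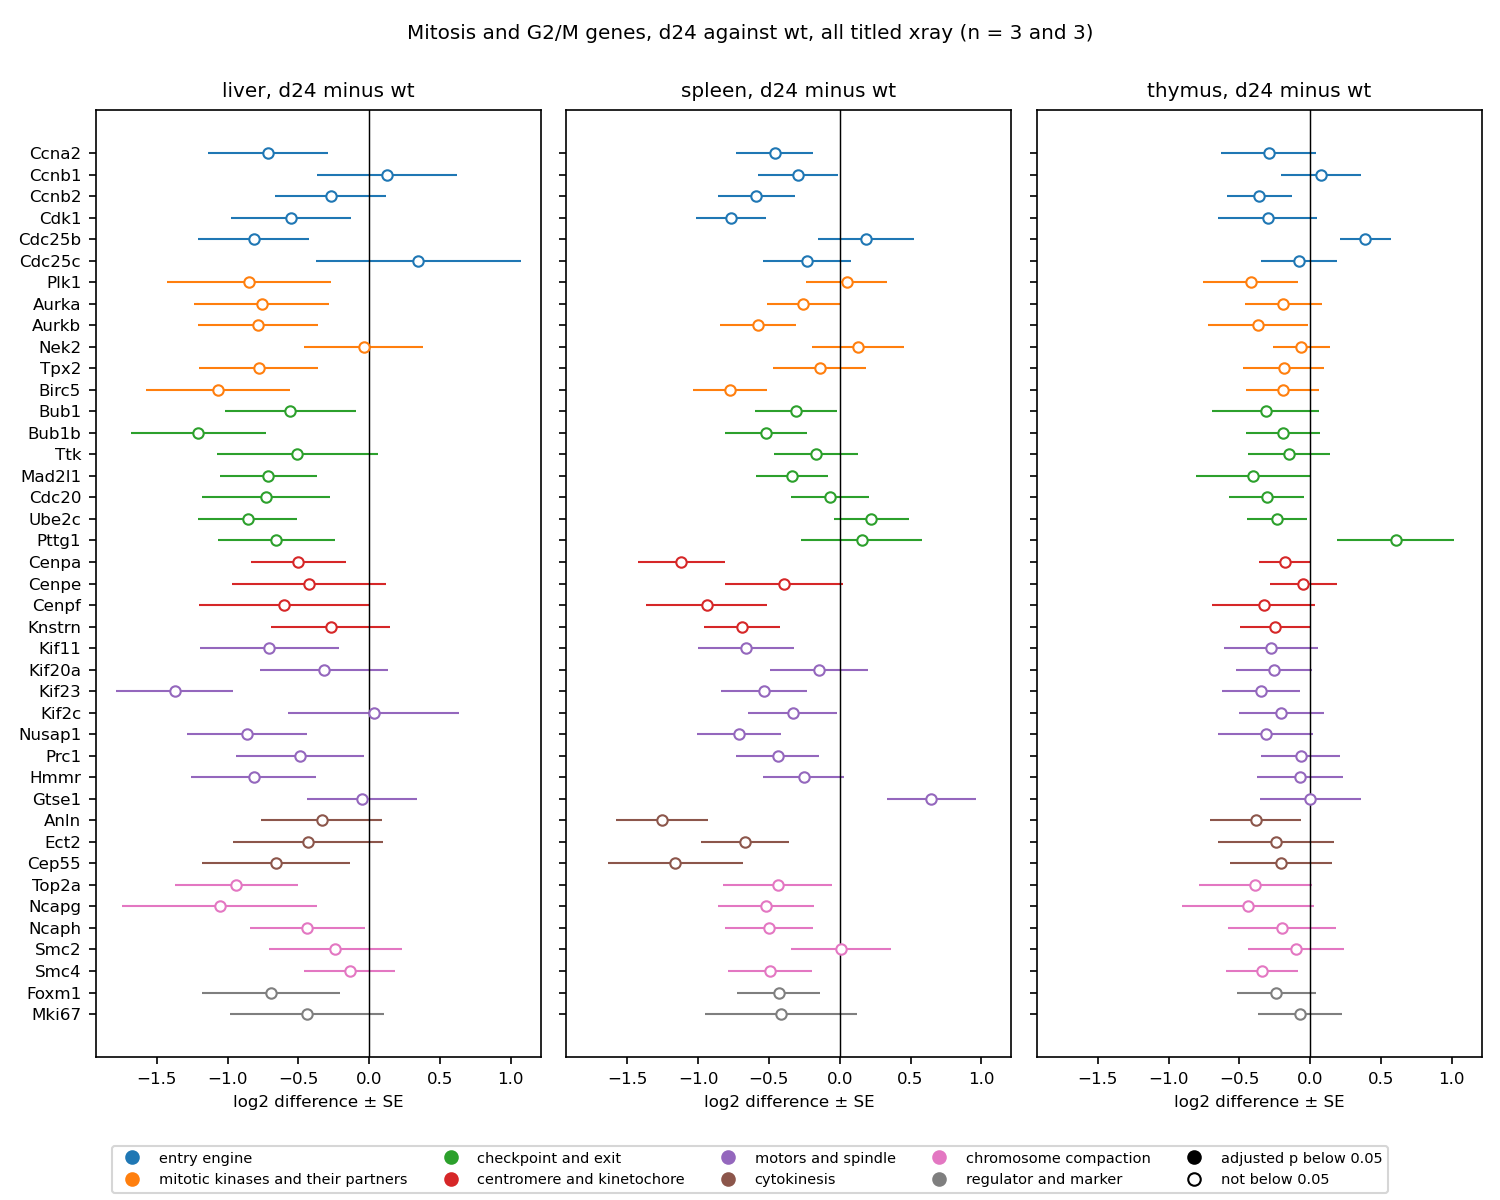
Log2 difference (d24 minus wt, ± SE, n = 3 and 3) of 41 members in liver, spleen and thymus of the single-end table, coloured by role. No point is filled, since no member had an adjusted p below 0.05, and most lie left of 0.

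In the d24 by tissue tests 0 of 41 members passed (limma, 0.988% of all genes for the F test), with 2 at an unadjusted p under 0.05 and 0 by edgeR or DESeq2. For thymus minus spleen, thymus minus liver and spleen minus liver 0 passed as well (0.652%, 0.298% and 0.503% of all genes), with 1, 2 and 2 members at an unadjusted p under 0.05. The smallest unadjusted p values belonged to Cdc25b and Ube2c (F test), Cenpa (thymus minus spleen), Cdc25b and Kif23 (thymus minus liver) and Ube2c and Cdc25b (spleen minus liver).

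Other genes of the pathway were followed in 7 lists of 96 genes with no members among them. The G2 brakes, which hold Cdk1 off after damage, had genes that passed in all wt tissues, in 53.8% of those tested in spleen and 75% in thymus, against 40% and 21.3% of all genes. Of those tested 3 of 11 rose in liver, 5 of 13 rose and 2 fell in spleen, and 7 of 12 rose and 2 fell in thymus. Of all genes 0.204% were higher in liver, 19.5% higher and 20.4% lower in spleen, and 9.77% higher and 11.6% lower in thymus. Cdkn1a rose by 2.97 ± 0.15, 4.87 ± 0.16 and 3.01 ± 0.12 in liver, spleen and thymus, Ccng1 (cyclin G1) by 2.02 ± 0.14, 3.28 ± 0.10 and 2.73 ± 0.09, and Plk2 by 2.82 ± 0.18 in spleen and 3.68 ± 0.11 in thymus. Btg2, an antiproliferative gene, rose by 1.04 ± 0.15 in liver. Those that fell were the kinases Chek1 (-1.48 ± 0.18 in spleen, -0.83 ± 0.11 in thymus) and Wee1 (-0.49 ± 0.13 and -0.59 ± 0.10).

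In liver no gene of the other 6 lists passed. The DREAM and MuvB list had 2 of 12 higher and 4 lower in spleen (Rbl2 0.69 ± 0.13, Rbl1 -0.90 ± 0.16, Mybl2 -0.88 ± 0.19) and 1 higher and 4 lower in thymus (Rbl2 0.33 ± 0.08, E2f4 -0.48 ± 0.08, Lin54 -0.55 ± 0.10). Rbl2 is the p130 subunit of DREAM and Mybl2 the B-Myb that replaces it. The share called in either direction was 50% in spleen and 41.7% in thymus, against 40% and 21.3% of all genes. Of 11 entry helpers 4 fell in spleen and 6 in thymus, with the phosphatase Cdc25a at -1.02 ± 0.14 and -0.63 ± 0.07. These were 36.4% and 54.5%, where 20.4% and 11.6% of all genes were lower. Of 13 late kinesins and midbody genes 1 fell in spleen (Kif15, -0.60 ± 0.20), and 7 fell in thymus (Kif20b -0.75 ± 0.10, Aspm -0.54 ± 0.10) while Kifc1 rose (0.60 ± 0.12), 7.69% called in spleen and 61.5% in thymus.

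The remaining lists had no gene that rose, and their shares called in spleen lay near the 40% of all genes called in either direction (20.4% were lower). The core kinetochore list had 7 of 19 lower in spleen (36.8%, Cenph -1.20 ± 0.23) and 3 in thymus (15.8%, where 11.6% of all genes were lower, Knl1 -0.64 ± 0.11, Cenpk -0.71 ± 0.14, Mis12 -0.40 ± 0.09). Cohesin and separase genes fell in 5 of 12 (41.7%) in spleen and 4 of 12 (33.3%) in thymus, with Pds5a at -0.61 ± 0.11 in spleen. Anaphase-promoting complex genes fell in 7 of 16 (43.8%) in spleen and 2 in thymus (12.5%, Cdc27 -0.46 ± 0.08, and the inhibitor gene Fbxo5 -0.37 ± 0.10). In the d24 comparisons 4 genes of the lists passed: Btg2 in liver (2.20 ± 0.38), and Cdkn1a (5.59 ± 0.28), Ccng1 (2.26 ± 0.25) and Fbxo5 (-1.15 ± 0.24) in spleen. Of all genes 0.526% passed in liver and 2.28% in spleen. The treatment field reads control for d24 liver and for wt spleen, so genotype and irradiation cannot be told apart in these differences.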

How the data were processed

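The deposited values are a normalised signal per gene, made by the authors in 2 tables; per the submitters' processing notes edgeR and the build mm10 were used, with no version. In both, signal is reads per 1000000 of an effective library size: dividing by what 1 read is worth in a library gave whole reads for 100% of values (tolerance 0.01). The design assumed CPM, so the log-scale test was kept. The aligner, counter and strand setting remain not given in the sources used here. RNA was kept in RNAlater, extracted with RNeasy Mini and prepared with TruSeq Stranded Total RNA, per the labels. Among the paired-end columns 18 matched no library here and were not used. Of the paired-end genes 18380 (96.7%), and of the single-end genes 17186 (97.1%), matched a symbol.

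The test was limma 3.58.1 (R 4.3.3, empirical Bayes with a mean trend) on log2 values after adding 0.5 to the signal. It took genes reaching a signal of 1 in 3 or more of the libraries compared. P-values were adjusted by Benjamini-Hochberg across every gene tested, and 0.05 was the threshold. Fold changes of low genes are understated on that scale. Interactions used all 18 libraries of a table. The script was tested on simulated data. Of the genes called there, 5%, 9.22% and 5.88% were false in X-ray liver, spleen and thymus. In d24 liver, spleen and thymus 3.75%, 10.7% and 11.2% were false, so the false share exceeded the threshold of 0.05 in some comparisons. Members, lists and marker lists were chosen with earlier results of these data known.

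Named members are a panel of 12 (Ccnb1, Cdk1, Plk1, Aurka, Bub1b, Cdc20, Cenpf, Kif11, Anln, Top2a, Mki67, Foxm1), the 5 highest and 5 lowest that passed (3 of smallest p where fewer than 3 passed), the 5 of smallest p in each interaction, and up to 3 passing genes per list. Other members were named for their role after their values were seen.

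Alternatives were pseudocounts of 0.1 and 2, no filter, plain CPM, median-ratio scaling, a replicate block, edgeR 4.0.16 and DESeq2 1.42.0 on recovered reads, 1 fit over a table and leaving out each library. Xist and erythroid covariates were added after seeing the data. On recovered reads edgeR called 32, 5272 and 2989 genes in X-ray liver, spleen and thymus, and 11, 145 and 2 in d24 liver, spleen and thymus. Same-numbered samples deviated together (every correlation over 0.1) in X-ray spleen (0.18, 0.24 and 0.19) and between untreated thymus and spleen (0.28, 0.30 and 0.14), and not in every pair elsewhere.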

Additional observations from a re-analysis of the deposited data

Results flagged for a closer look

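Among the members, 4 genes were picked out because the effect of X-rays differed between tissues by a test of the difference itself (limma, Benjamini-Hochberg over all genes, 18 libraries). Gtse1 passed the F test over tissues (F = 10.8, adjusted p = 0.0083), thymus minus spleen (0.84, adjusted p = 0.039) and thymus minus liver (1.09, adjusted p = 0.00957), with its signal higher after X-rays in 3 of 3 libraries of each tissue. Ube2c passed the F test (F = 5.97, adjusted p = 0.0403) and spleen minus liver (1.67, adjusted p = 0.0272). Pttg1 passed the F test (F = 6.23, adjusted p = 0.0364) and spleen minus liver (0.76, adjusted p = 0.0209). Mki67 passed spleen minus liver (1.18, adjusted p = 0.0272 by limma). Irradiated liver replicate 1 bears on each comparison with liver. Leaving it out raised the number of members called to 33, 25 and 32 (F test, thymus minus liver, spleen minus liver). With it, 30.5%, 15.5% and 26.4% of all genes passed these tests. The shares of all genes without it are not given here, so the rise cannot be read as particular to the members.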

How the results depend on the processing

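Of 176 values recomputed for whole comparisons with no library left out, 160 kept their side of the threshold or stayed within 1.5 times. The others were numbers of members called. In X-ray liver they were 3 (DESeq2, 4.76%) and 15 (1 fit over the table, 10.1%), against 0 (0.242%). In X-ray spleen they were 3 without the filter (28.3%), 17 on plain CPM (35.1%) and 3 by edgeR (39.4%), against 6 (40%). With the Xist covariate 2 passed there (31%) and with the erythroid covariate 33 (54.2%). In X-ray thymus 1 fit over the table gave 3 (11.8%), against 29 (21.3%). In d24 liver 1 fit gave 1 (1.75%), against 0 (0.526%). In d24 spleen the replicate block gave 1 (4.23%), DESeq2 3 (4.38%) and 1 fit 1 (2.5%), against 0 (2.28%). Thymus minus liver gave 2 on plain CPM (10.4%) and 2 with the replicate block (16.6%), against 1 (15.5%). Spleen minus liver gave 5 with the block (27.4%) and 1 by edgeR (22.9%), against 3 (26.4%). Percentages are the shares of all genes that passed. The causes were not tested.

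With 1 library left out, members called ran from 0 to 40 in X-ray liver, 2 to 32 in spleen and 19 to 29 in thymus, 0 to 1, 0 to 2 and 0 to 0 in d24 liver, spleen and thymus, 40 to 41 for untreated thymus minus spleen, and 1 to 33, 0 to 2, 1 to 25 and 0 to 32 for the F test, thymus minus spleen, thymus minus liver and spleen minus liver. The d24 tests between tissues stayed at 0. These counts stand without the share of all genes, which also moved between such fits. Median differences ran from -1.29 to -0.57, -0.53 to -0.02 and -0.50 to -0.31 (X-ray liver, spleen, thymus), and from -0.96 to -0.20, -0.62 to -0.24 and -0.43 to 0.18 (d24 liver, spleen, thymus).

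The replicate block gave 0, 8 and 35 members in X-ray liver, spleen and thymus, with 0.294%, 42.6% and 30.9% of all genes. In d24 liver, spleen and thymus the block gave 0, 1 and 0, with 0.241%, 4.23% and 0% of all genes. For untreated thymus minus spleen the block gave 41, with 78% of all genes. In the comparisons where same-numbered samples deviated together, it moved no count by over 1.5 times. In X-ray spleen the block cannot test pairing by animal. Xist was 0.062 in untreated and 361 in irradiated spleen replicate 2, so these libraries did not come from 1 animal.

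Single members changed sign in these cases. Ccnb1 in d24 liver was -0.092 on plain CPM and -0.025 with Xist (left-out range -0.30 to 0.40), and in d24 thymus -0.063 with Xist (-0.11 to 0.41). Cdc20 in d24 spleen was 0.023 on plain CPM and 0.13 with Xist (-0.29 to 0.10), and Plk1 there -0.047 with Xist (-0.15 to 0.24). Mki67 in d24 thymus was 0.016 by edgeR, 0.017 by DESeq2 and 0.015 with Xist (-0.33 to 0.32). By leaving out a library alone, ranges crossed 0 for Cdk1 (-0.45 to 0.093) and Cdc20 (-0.42 to 0.027) in X-ray spleen, for Cenpf (-1.23 to 0.18), Mki67 (-1.07 to 0.21) and Anln (-0.66 to 0.14) in d24 liver, for Mki67 (-1.16 to 0.059) in d24 spleen, and in d24 thymus for Cdk1 (-0.57 to 0.21), Plk1 (-0.73 to 0.049), Aurka (-0.37 to 0.15), Bub1b (-0.41 to 0.13), Cdc20 (-0.53 to 0.028), Cenpf (-0.64 to 0.18), Kif11 (-0.55 to 0.20), Top2a (-0.74 to 0.21) and Foxm1 (-0.45 to 0.13). Values near 1 read per library, at most 0.0828 units of signal, rest on few reads.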
